A study of Mus musculus with 2 samples.

Results

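Frame-shifting cassette exons are internal exons that can be left out of a messenger RNA and whose length is not a multiple of 3, so that inclusion and skipping put the downstream sequence in different reading frames. They were chosen here from measured values. An exon of the mm9 Ensembl release 65 annotation was taken if it was 28 to 300 nt long and not divisible by 3, if the junctions on both of its sides and the junction that skips it were in the deposited junction table, and if these held at least 20 reads. The junctions on both sides also had to lie within 3-fold of each other, and inclusion had to lie between 5% and 95%. Inclusion is the mean of both inclusion junctions divided by that mean plus the skipping reads. By this rule 3370 exons qualified, out of 351001 annotated exons. They were 23.1% of the 14600 frame-shifting exons that met every criterion, the skipping junction included, except the limits on inclusion. Frame-preserving exons that met the rest of the rule numbered 2755, out of 9739 (28.3%) without the limits on inclusion.

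Tissue labelled as central nervous system was taken at embryonic day 18 from C57BL/6J mice and pooled over littermates of both sexes. There was 1 group of 2 libraries, numbered by the labels as biological replicates, with no treatment or genotype to compare. The libraries held stranded, paired-end reads of poly-A RNA. The mm9 junction table gives the reads of replicates R1 and R2, which summed to 48204482 and 69266527, and the mm10 gene and transcript tables give 1 library each, with expected counts on genes of 93979836 and 137012773. Nothing in the files ties R1 or R2 to a library of the mm10 tables, so the names are kept apart below. In the mm10 tables all 6 young neuron markers and all 6 radial glia markers were at 1 TPM or more in both libraries. Their summed levels were 5927 and 5454 TPM for neurons and 1926 and 2115 TPM for radial glia, in replicates 1 and 2. The 3 skeletal muscle markers, 2 of which reached 1 TPM in both libraries, summed to 11.9 TPM in replicate 1 and 428 TPM in replicate 2. The 3 keratinocyte markers went the other way, with 55.1 and 0.12 TPM, and none reached 1 TPM in both. In such bulk tissue, fewer cells of a type and less RNA per cell cannot be told apart.

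Splicing of an exon that shifts the frame works as a switch on the protein. A frame shift usually brings a stop codon soon after, and a stop that lies more than about 50 nt before the last exon junction marks the RNA for nonsense-mediated decay, the pathway that degrades transcripts with premature stops. In most genes skipping is the unproductive choice. In others the exon itself carries the stop and inclusion is unproductive, and such poison exons are known for splicing factors that limit their own level. In developing neurons the polypyrimidine tract binding proteins Ptbp1 and Ptbp2 are the best known example, since Ptbp1 promotes skipping of a 34-nt exon in the Ptbp2 transcript and thereby its decay. RNA that is degraded quickly is under-represented in steady-state reads, so inclusion here describes the RNA that was present.

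The exons below show how the shift acts in the sequence. Their letters were read from GENCODE M21 transcripts on GRCm38, and the positions are those of the deposited mm9 annotation. First come the 34-nt exons of Ptbp1 (chr10:79324759-79324792, plus strand) and Ptbp2 (chr3:119427530-119427563, minus strand). They are shown because they are counterparts in paralogous genes. Capitals mark the bases of Ptbp2 that differ from Ptbp1, and 26 of 34 bases (76.5%) were identical.
Ptbp1: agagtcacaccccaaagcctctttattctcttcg
Ptbp2: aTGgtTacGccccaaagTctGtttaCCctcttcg
Next are the joined flanks that result when an exon is skipped: the last 12 bases of the exon before, then the exon after, up to the new stop codon in capitals. In both Ptbp1 and Ptbp2 the stop begins 24 bases into the downstream exon. The 110-nt exon of Dlg4 (chr11:69857160-69857269, plus strand), which encodes the postsynaptic scaffold PSD-95, gives a stop after 9 bases. The 91-nt exons of the SR protein kinases Clk1 (chr1:58476965-58477055, minus strand) and Clk4 (chr11:51086580-51086670, plus strand) are again paralogs, identical at 85 of 91 bases (93.4%), and both give a stop after 18 bases.
Ptbp1 skipped: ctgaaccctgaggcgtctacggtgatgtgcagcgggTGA
Ptbp2 skipped: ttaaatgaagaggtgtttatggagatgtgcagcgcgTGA
Dlg4 skipped: gtagcagagcagagagatcaaTAA
Clk1 skipped: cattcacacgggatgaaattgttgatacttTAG
Clk4 skipped: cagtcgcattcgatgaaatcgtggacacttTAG
The opposite case is an exon whose inclusion brings the stop. The inserted exons of the splicing factors Srsf6 (chr2:162758551-162758818, plus strand), Rbm39 (chr2:156004616-156004688, minus strand) and Prpf39 (chr12:66156421-66156520, plus strand), and of the histone methyltransferase Ezh2 (chr6:47496748-47496829, minus strand), are printed from their first base to the first stop in the annotated frame, in capitals.
Srsf6 inserted: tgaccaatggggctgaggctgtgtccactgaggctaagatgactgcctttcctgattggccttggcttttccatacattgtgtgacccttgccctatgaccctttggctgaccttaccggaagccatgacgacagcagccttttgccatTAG
Rbm39 inserted: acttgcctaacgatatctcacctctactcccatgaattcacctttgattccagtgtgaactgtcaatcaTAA
Prpf39 inserted: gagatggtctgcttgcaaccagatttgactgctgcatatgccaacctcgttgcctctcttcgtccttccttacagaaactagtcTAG
Ezh2 inserted: ccactcctacctaggaacTAA
The stop began 149 bases into the 268-nt exon of Srsf6, 69 bases into the 73-nt exon of Rbm39, 84 bases into the 100-nt exon of Prpf39 and 18 bases into the 82-nt exon of Ezh2.

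The 3370 exons lay in 2685 genes or groups of overlapping genes, of which 2156 had 1 such exon, 409 had 2 and 120 had 3 or more. Dnah9 had 7, Zbtb20 had 6 and Chrd had 5. Their median length was 109 nt (quartiles 77 and 146), and 1751 left a remainder of 1 base and 1619 a remainder of 2. They made up 55.0% of the 6125 frame-shifting and frame-preserving cassette exons of 28 to 300 nt, beside 60.2% of 178269 internal exons of that length. The 3 junctions of an exon held a median of 263 reads, from 20 to 50342. Most host genes were expressed: of 2620 genes or groups found in the mm10 tables, 2467 (94.2%) reached 1 TPM in both libraries, and the median level was 16.1 TPM.

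Most of these exons were included in the larger part of the RNA. Median inclusion was 85.0% (quartiles 56.5% and 92.0%), and 2632 exons (78.1%) were at 50% or more. The frame-preserving exons had a median of 74.0%, and 68.4% of them were at 50% or more. These values chose the exons, so they are a description. At 90% to 95%, next to the upper limit, lay 1186 frame-shifting exons (35.2%), beside 24.6% of the frame-preserving ones. Just inside that limit were Sec24a and Pdzd7, both at 95%, and just outside were Ccdc167 and Stard4, at 95.0046% and 95.0113%. At the lower limit ENSMUSG00000086651, at 5%, and Capzb, at 5.02%, were inside, and Rnf167 and Tank, at 4.9975% and 4.98753%, were outside. At the lowest number of reads Wdr95 and Slc38a10 had 20, and Gstm2 and Rpl23, with 19, were left out. In length the nearest were Prpf40b and Stx2 with 28 nt inside, Ap1ar and Dpm1 with 26 nt outside, Fam126a and Zfp518b with 298 nt inside and Gpsm2 and Hfm1 with 304 nt outside. The ratio of the inclusion junctions was 3 in Ccdc74a and Golgb1, and 3.02 in Fbxw11 and 3.03 in Zc3h8, which were left out.

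Median inclusion ranged from 17.3% to 89.0% with the role of the exon in the annotated protein, which the rule did not use. Of the 3370 exons, 3294 could be matched to GENCODE M21. The largest class was the 2060 exons that lay inside the coding region and had no complete coding transcript that skipped them, with a median inclusion of 89.0%, and 1921 of them (93.3%) were at 50% or more. The 217 inserted exons, which are absent from a complete coding transcript that joins their flanks, had a median of 17.3%, and 32 (14.7%) were at 50% or more. Exons in the 5' untranslated region numbered 291 with a median of 61.1%, exons with the start or stop codon 235 with a median of 84.0%, and exons of non-coding genes 88 with a median of 67.4%. A further 210 exons of coding genes were in no complete coding transcript (median 36.8%), 5 lay in a 3' untranslated region, and 76 were not matched. Among frame-preserving exons the median was 87.9% for the coding class and 20.98% for inserted exons. The range across roles is therefore not particular to frame-shifting exons. For exons with the start or stop codon the frame-preserving median was lower, at 69.4%. The class names come from the annotation, which was itself built in part from RNA evidence, so class and inclusion are not independent measures.

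**Figure D1:**
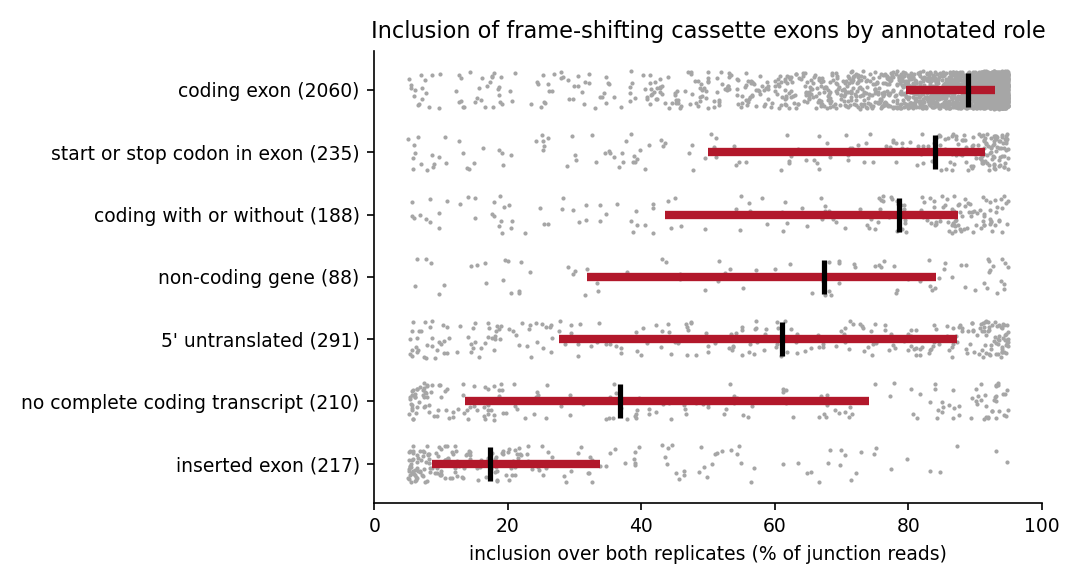
Inclusion of each frame-shifting cassette exon over both replicates (x axis, % of junction reads), by its role in the annotation (y axis, number of exons in parentheses). Grey points are exons, the red bar spans the quartiles and the black line is the median. The median is 89.0% for coding exons and 17.3% for inserted exons. Frame-preserving exons, which are not drawn, have medians of 87.9% and 20.98% in these classes.

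The class whose share differed most from that among the frame-preserving exons was the one with complete coding transcripts for both inclusion and skipping. It held 188 of the frame-shifting exons (5.58%) and 1001 of the 2755 frame-preserving ones (36.3%). A shifted frame usually meets an early stop, and transcripts annotated as targets of decay do not count as coding here. This difference therefore follows in part from how the exons were split. The skipping junction was annotated for 1599 of the 3294 matched frame-shifting exons (48.5%), and for 65.1% of the frame-preserving ones. Exons are not samples, so these shares carry no test.

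Skipping a coding exon of this kind ended the predicted protein early in most cases. The frame could be followed for 1870 coding exons, and in 1627 of them (87.0%) skipping gave a stop codon at least 50 nt before the last junction. Among 883 frame-preserving coding exons it did so in 6 (0.680%). That low share follows from how the exons were split, since skipping a frame-preserving exon leaves the downstream reading frame unchanged. The contrast is therefore not a finding. The new stop began a median of 33 bases after the skipping junction (quartiles 12 and 71), in 779 exons (47.9%) within 30 bases, and in 23 it spanned the junction itself. The exon began after a median of 30.5% of the protein. Median inclusion was 89.2% where skipping gave an early stop and 89.99% (243 exons) where it did not. In that smaller group the shifted frame ran to within 50 nt of the last junction or past it. Examples with many reads were Ldhb, a lactate dehydrogenase subunit (89.5% inclusion, 334 residues with the exon and 259 without), Ubac1 (79.0%, 409 and 340 residues) and Matr3, an RNA-binding nuclear matrix protein (92.4%, 846 and 793 residues). Cops9, a signalosome subunit, was at 93.4% with 57 and 55 residues. These 4 were chosen after their values were seen.

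**Figure D2:**
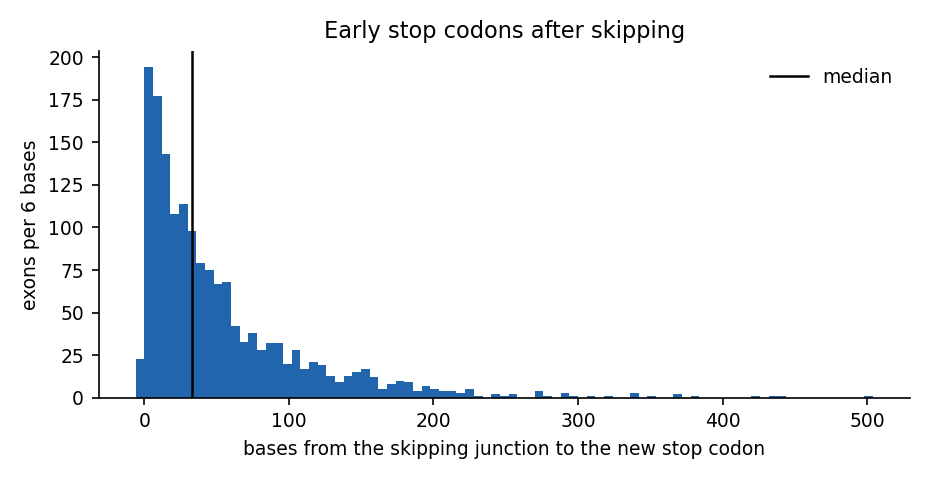
Distance from the skipping junction to the first stop codon in the shifted frame (x axis, bases), as the number of exons per 6 bases (y axis), for the 1627 coding exons whose skipping gives an early stop. The black line marks the median of 33 bases, and the counts fall with distance.

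Inserted exons mirrored this. Inclusion gave an early stop in 195 of 217 (89.9%), and in 152 of these (77.9%) the stop lay inside the exon itself. Of the 195, 117 (60%) were in a transcript that GENCODE annotates as a target of nonsense-mediated decay. Frame-preserving inserted exons gave an early stop in 85 of 203 (41.9%). Inserting a frame-preserving exon leaves the downstream frame unchanged, so this contrast also follows in part from how the exons were split. It is not a finding either. The median inclusion of the 195 was 17.3%, from 5.13% to 94.9%. That of the 22 inserted exons without an early stop was no higher, at 15.8%. The host genes of inserted exons had a median level of 23.5 TPM, beside 13.6 TPM for those of coding exons whose frame could be followed.

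The polypyrimidine tract binding proteins, which repress exons across the neural transcriptome, each carried a 34-nt member. In Ptbp2, the form that replaces Ptbp1 as neurons are born, the exon was included in 94.1% of R1 (1415 and 1615 inclusion reads, 95 skipping) and 93.1% of R2 (2233 and 2570, 178 skipping). Over both this was 93.5% (95% exact binomial interval 92.7% to 94.2%, counting error only, as for all intervals here). In Ptbp1, which is high in progenitors, it was 92.2% of R1 (225 and 199 reads, 18 skipping) and 91.5% of R2 (397 and 251, 30 skipping), or 91.8% in all (89.3% to 93.9%). The Ptbp2 and Ptbp1 values lay within 3 percentage points of each other in both replicates. Skipping cut the predicted protein from 532 to 356 residues in Ptbp2 and from 555 to 379 in Ptbp1. The 34-nt exon of Ptbp3 is a different one, the second of 15 exons, and was included less, at 34.04% of R1 and 26.5% of R2 (29.2%, 21.6% to 37.8%). The host genes were at 117.8 ± 2.34 TPM for Ptbp2, 67.1 ± 4.20 for Ptbp1 and 8.41 ± 0.148 for Ptbp3 (mean ± SD, n = 2).

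Among SR proteins and SR-like factors, which bind exons and the early spliceosome, 21 of 59 frame-shifting exons were members (35.6%), in 12 genes. Over all genes the share was 23.1%. The 59, like the totals of the lists below, met the rule apart from the limits on inclusion. The members' median inclusion was 52.6%, and 11 were at 50% or more. At some of the 21, junction reads were under 0.25 times the median of the other introns. These were both Srsf11 exons (0.0514 and 0.158), the 101-nt and 68-nt exons of Luc7l2 (0.0163 and 0.107), the 55-nt Rbm39 exon (0.149) and Clk1 (0.209). Of the 21, 6 were coding exons and 4 inserted exons, and all 10 gave an early stop, when skipped or when included. In Srsf6 the inserted exon was at 17.3% in R1 and 17.3% in R2, with 294 and 698 inclusion reads and 2370 skipping reads in all. The inclusion junctions were uneven, and with the lower of them it was 11.0%. In Srsf2 a 104-nt exon of the 3' untranslated region was at 9.95% and 8%, with 3574 skipping reads, or 5.60% over both with the lower inclusion junction. In Rbm39, a U2AF-related factor, the inserted exon was at 29.0% and 32.3%, and in Luc7l, related to a U1 protein, a 71-nt inserted exon was at 61.1% and 53.7%. The Rbm39 exon ended the reading frame after 40 residues in place of 530, and that of Luc7l after 79 in place of 371, with the stop beyond the exon. The 122-nt exon of Rnps1, a subunit of complexes deposited at exon junctions, lay in its 5' untranslated region and was at 43.7% and 42.4%.

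All 4 Clk kinases, which phosphorylate SR proteins, had a member at the same place, the fourth of 13 exons, and skipping gave an early stop in each. Clk3 (97 nt) was at 91.02% of R1 and 91.9% of R2. Clk2 had versions of 88 and 85 nt that share their downstream junction and overlap, so they are not separate exons, and the longer was at 85.4% and 86.8%. Clk1 was at 72.5% and 79.1%, and Clk4 at 50.7% and 54.1%. The order of the genes was the same in R1 and R2. The exact intervals over both replicates, which cover counting error only, did not overlap between these genes. They were 90.01% to 92.9% for Clk3, 83.5% to 88.6% for the longer Clk2 form, 74.0% to 79.4% for Clk1 and 48.1% to 57.0% for Clk4. The R1 value of Clk1 lay outside its own interval, so the intervals do not hold the spread between libraries. Reads at the Clk1 and Clk4 exons were fewer than elsewhere in the transcript. In Clk1 the inclusion mean and skipping reads came to 966.5, and the median of 10 other introns was 4616. In Clk4 they came to 506.5 beside 1823.5. Clk4 had 2 further members upstream, of 67 nt (6.35%) and 59 nt (31.3%), and Clk2 another of 133 nt (5.83%).

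**Figure D3:**
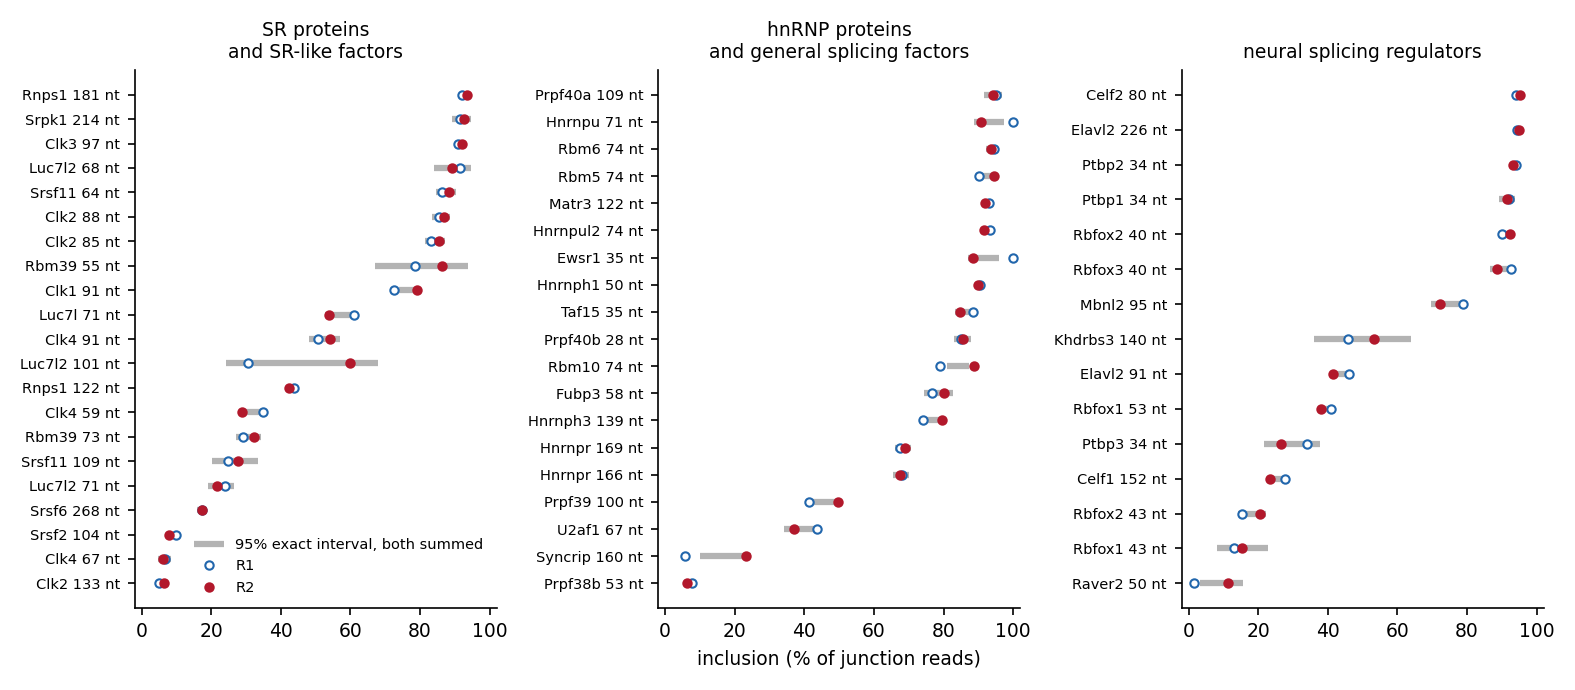
Inclusion (x axis, % of junction reads) of the members in 3 gene lists of splicing factors (y axis, gene and exon length). Open circles are R1, filled circles R2 and grey bars the 95% exact interval over both, which covers counting error only. The Ptbp1 and Ptbp2 exons sit above 91%, and the Srsf2 and Srsf6 exons below 18%.

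Of the hnRNP proteins and general splicing factors, 19 of 93 exons were members (20.4%) with a median inclusion of 85.4%. Of their 10 coding exons 9 gave an early stop when skipped, and both inserted exons gave one when included. Hnrnpul2 (74 nt) was at 93.4% and 91.7%, and Taf15 (35 nt), an RNA-binding protein of the FET family, at 88.6% and 84.7%. Hnrnph3 (139 nt) was at 74.1% and 79.5%. The related Rbm5, Rbm6 and Rbm10, which regulate splice-site pairing, each had a 74-nt member, at 90.1% and 94.6%, 94.5% and 93.5%, and 79.0% and 88.8%. The inserted exons were those of Prpf39 (41.4% and 49.8%) and Prpf38b (7.62% and 6.31%, or 4.31% over both with the lower inclusion junction), both spliceosomal proteins. The 35-nt Ewsr1 exon was at 100% in R1 and 88.3% in R2, and its skipping rests on 12 reads of R2 alone. Its junctions carried 156.5 reads beside a median of 1856 at 15 other introns.

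Of the neural splicing regulators, 15 of 64 exons were members (23.4%). Their median inclusion was 50%. Of the 8 coding exons, 1 could not be followed, and 4 gave an early stop when skipped, those of Ptbp1, Ptbp2, Ptbp3 and Celf2 (80 nt, 94.1% and 95.2%). In Rbfox2, a regulator that binds GCAUG motifs, exons of 40 and 43 nt lie between the same flanks. The 40-nt exon was at 89.9% of R1 and 92.4% of R2, and the 43-nt exon at 15.3% and 20.6%, counted against the same skipping reads. Neither gave an early stop when skipped. In Rbfox1 a 53-nt exon that was not matched to M21 was at 41.0% and 38.0%, and a 43-nt exon was at 13.1% and 15.5%, or 8.70% over both with the lower inclusion junction. In Elavl2, a neuronal RNA-binding protein, a 91-nt exon with the start or stop codon of an annotated transcript was at 46.1% and 41.5%. The Khdrbs3 exon of 140 nt was at 45.8% and 53.3%, but its junctions held under 1% of the reads at their splice sites (0.568% and 0.512%).

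Among ion channels 17 of 69 exons were members (24.6%). Of the 12 coding exons, 1 in Cacna1c could not be followed, and the other 11 gave an early stop when skipped. The Cacna1a and Cacna1b exons among them belong to the pairs below, and skipping was read with neither exon of a pair included. The same holds for the other Cacna1c exon, since both exons of that gene are 104 nt long and adjacent. Where 1 exon takes the place of another of equal length, the downstream frame is kept. The calcium channel genes Cacna1a and Cacna1b, for the pore subunits of P/Q-type and N-type channels, each carried a pair of 97-nt exons between the same flanks, and their sequences are shown because the exons of a pair are known alternatives to each other. The more included exon of each gene comes first (Cacna1a chr8:87139473-87139569 and chr8:87138594-87138690, plus strand, and Cacna1b chr2:24480758-24480854 and chr2:24482343-24482439, minus strand). Capitals mark the bases that differ from the other exon of the gene.
Cacna1a exon at 84.0%: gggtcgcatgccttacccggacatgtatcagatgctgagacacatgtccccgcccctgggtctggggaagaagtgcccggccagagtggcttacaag
Cacna1a exon at 9.83%: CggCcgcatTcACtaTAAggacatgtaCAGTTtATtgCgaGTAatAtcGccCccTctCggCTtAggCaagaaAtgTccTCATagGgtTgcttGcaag
Cacna1b exon at 81.1%: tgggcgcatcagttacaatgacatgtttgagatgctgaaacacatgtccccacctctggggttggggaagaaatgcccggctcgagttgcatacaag
Cacna1b exon at 7.92%: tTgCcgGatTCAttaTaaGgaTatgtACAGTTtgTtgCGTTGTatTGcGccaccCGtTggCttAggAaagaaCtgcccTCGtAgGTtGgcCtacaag
The exons of a pair shared 60 of 97 bases in Cacna1a (61.9%) and 57 of 97 in Cacna1b (58.8%). The more included exons of both genes shared 77 bases (79.4%), and the less included ones 73 (75.3%). In Cacna1a the first was at 84.3% of R1 and 83.7% of R2 and the second at 9.09% and 10.4%, on 10 and 7 inclusion reads in all. In Cacna1b they were at 79.3% and 82.6%, and at 7.58% and 8.27%, on 6 and 15 inclusion reads in all, or 4.69% over both with the lower junction. The junction with 6 reads held 23.1% of the reads at its splice site in that exon, and the one with 15 reads 100%. Each exon was set against the same skipping reads, without the reads of its partner, so the values of a pair are not shares of 1 total. In both genes and both replicates the more included exon was the downstream one. Cacnb3, a calcium channel beta subunit, had a 110-nt exon at 88.6% and 88.4%, whose skipping gave a stop after 1 base. Cacna1g, a T-type channel, had a 115-nt exon at 96.9% and 93.5%.

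In the synaptic and adhesion list 17 of 114 exons were members (14.9%), and 5 of 8 coding exons gave an early stop. The frame of the Gria4 coding exon, among these 8, could not be followed. The Dlg4 exon was at 92.8% of R1 (1899 and 1852 inclusion reads, 145 skipping) and 92.3% of R2 (2426 and 2348, 200 skipping). Its skipping junction is annotated as a target of decay and gives a protein of 625 residues in place of 724. The AMPA receptor subunit genes Gria2, Gria3 and Gria4 each had a 115-nt member, at 51.6% and 59.9%, 7.28% and 11.4%, and 30.7% and 47.7%. The annotated transcript that joins the flanks already coded for 883 residues in Gria2 and 888 in Gria3. Inserting the exon into it gave an early stop, after 813 and 818 residues. Inclusion here is therefore not shown to be the share of this exon in place of an alternative one. The junctions held 51.7% and 89.7% of the reads at their splice sites in Gria2, 100% and 55.1% in Gria3, and 29.8% and 68.5% in Gria4. Among chromatin and transcription regulators 22 of 124 exons were members (17.7%, median inclusion 30.6%), and those with the most reads were the inserted exon of Brd2, a bromodomain protein (18.4% and 19.7%), the coding exon of the histone deacetylase Hdac7 (90.9% and 89.4%) and an exon of the transcription factor Nfia (91.8% and 93.8%). The cytoskeleton list had 13 of 113 (11.5%) and the kinase list 11 of 66 (16.7%), and none of 8 exons of a list of 15 ribosomal protein genes was a member. That list does not hold Rpl27a, a ribosomal protein gene that has a member. Add1, an adducin of the membrane skeleton, had a 37-nt exon at 87.5% and 87.9%. Its skipping did not end the protein early but lengthened it from 663 to 766 residues. Read in the annotated transcript that skips the exon, the lengths were 632 and 735 residues. Dclk1, a kinase of young neurons, had a 74-nt exon at 19.0% and 19.7%. The protein had 422 residues when it was included and 433 when skipped, in the annotated transcript chosen with the exon. In the one chosen without it, these were 728 and 739.

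The exons with the most reads included several outside coding sequence. The imprinted non-coding RNA Meg3 had 50342 reads, and its 94-nt exon was at 19.9% and 19.0% (19.4%, 19.0% to 19.7%). The 89-nt exon of the transcribed pseudogene Pisd-ps1 was at 19.96% and 19.4%, or 11.7% over both with the lower inclusion junction, and the 80-nt exon of Snhg11 at 8.84% and 8.43%. Reads of a pseudogene cannot always be told apart from those of its parent gene. Gnb1, a G protein beta subunit, had a 49-nt exon of the 5' untranslated region at 74.6% and 75.1%, and Morf4l2 one of 77 nt at 25.5% and 23.7%. The coding exon of Cd200, a membrane glycoprotein of neurons, was at 93.7% and 94.0%. Ndufa6, a respiratory complex I subunit, was at 92.9% and 91.8% and had coding transcripts for both forms. The 50-nt exon of Hnrnph1, which holds a start or stop codon, was at 90.5% and 89.9%. Of the 10 exons with the most reads, Cops9 had the largest replicate difference, at 92.03% and 94.1% (exact test, unadjusted p = 0.00333, adjusted p = 0.432), and none of the 10 differed after adjustment. The 41-nt exon of Gas5, a host of small nucleolar RNAs that was added after its values were seen, was at 16.8% in both.

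Between R1 and R2 the absolute difference in inclusion had a median of 3.45 percentage points over 2775 members with 20 or more reads in each replicate. It was 10.8 points for those with 20 to 99 reads in all, 4.68 for 100 to 499 and 2.04 for 500 or more. The frame-preserving members had a median of 3.42 points. Fisher's exact test (two-sided, Benjamini-Hochberg over 25722 cassette exons of any length and inclusion) found 33 exons that differed at an adjusted p under 0.05, or 0.128%. Of the members, 9 of 3370 differed (0.267%), 8 higher in R2 and 1 lower, and at an unadjusted p under 0.05 there were 296 (8.78%). Over all tested exons 0.0855% were higher in R2 and 0.0428% lower, and 0.544% of the frame-preserving members differed. This test compares the reads of these 2 libraries against counting error only, and says nothing of a condition.

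**Figure D4:**
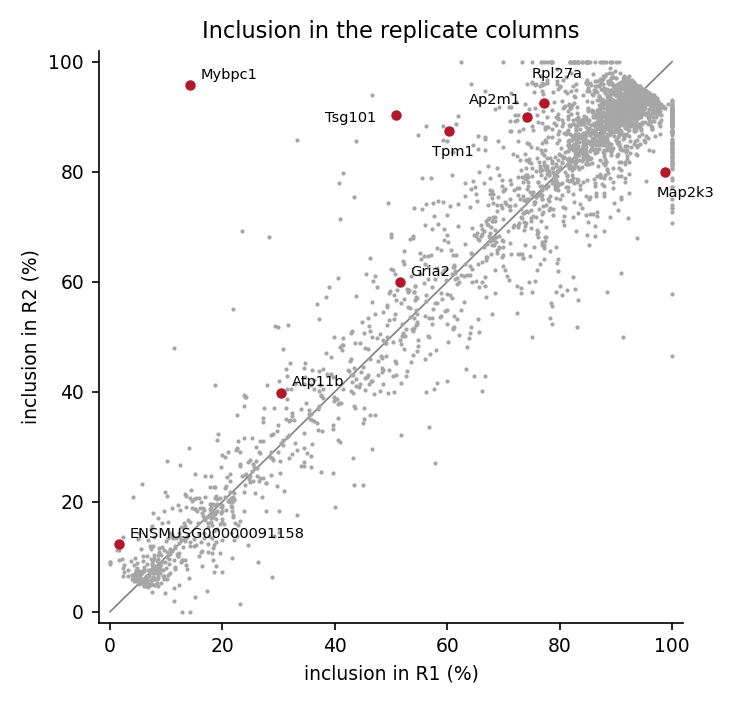
Inclusion in R1 (x axis, %) against R2 (y axis, %). Grey points are members with 20 or more reads in each replicate, red points the 9 members that differed by Fisher's exact test after adjustment, and the line marks equal values. Of the red points 8 lie above the line, and Map2k3 lies below it.

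The largest difference was in Mybpc1, a myosin-binding protein of slow muscle, whose 43-nt exon was at 14.3% of R1 (0 and 3 inclusion reads, 9 skipping) and 95.7% of R2 (247 and 241, 11 skipping; exact test, adjusted p = 1.96e-06). Tpm1, a tropomyosin of muscle and other cells, had a 79-nt exon at 60.3% of R1 (67 and 112 reads, 59 skipping) and 87.4% of R2 (637 and 842, 107 skipping; exact test, adjusted p = 8.19e-10). Muscle markers also differed between the mm10 libraries, as given above: Ckm was at 0.23 and 94.4 TPM, Mylpf at 1.40 and 166 TPM and Acta1 at 10.2 and 167 TPM. Mybpc1 itself was at 3.26 and 25.3 TPM, and Tpm1 at 120.4 and 181.5 TPM. Their part in the difference was not tested, since R1 and R2 are not tied to those libraries.

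In 4 other exons that differed, inclusion reads were over 5 times as many in R2, beside a library ratio of 1.44 over all junctions. The 62-nt exon of ENSMUSG00000091158 had the fewest, from 6 to 76 (12.7-fold), with a skipping ratio of 1.49, and was at 1.62% and 12.3% (exact test, adjusted p = 0.00912). In the other 3 they went from 161 to 914 in Ap2m1, a clathrin adaptor subunit (5.68-fold), from 156 to 905 in the ribosomal protein gene Rpl27a (5.80-fold) and from 29 to 148 in Tsg101, an endosomal sorting protein (5.10-fold). Their ratios of skipping reads were 1.82, 1.61 and 0.571. Inclusion was 74.2% and 89.96% in Ap2m1, 77.2% and 92.4% in Rpl27a and 50.9% and 90.2% in Tsg101 (exact test, adjusted p = 0.0351, 0.0279 and 0.0232). Rpl27a has near-identical copies in the genome, so its reads are uncertain. The levels of these 3 genes in the mm10 libraries were 815.6 and 776.8, 444.8 and 443.7, and 60.4 and 55.5 TPM, in replicates 1 and 2. The Tsg101 junctions carried 110.5 reads beside a median of 927 at 7 other introns. Over all members with 20 or more inclusion reads in R1, 30 of 2573 had an inclusion ratio over 2 times that of the libraries. What part this had in the differences was not tested. The other members that differed were Map2k3, a MAP kinase kinase (98.7% and 80%), an 86-nt exon of the flippase Atp11b (30.5% and 39.9%) and the 115-nt exon of Gria2.

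How much of a gene's splicing these junctions capture varied. For 2815 members the mm9 transcript had 3 or more other introns, and the reads at the exon came to a median of 0.925 times those at the other introns (quartiles 0.625 and 1.32). In 186 (6.61%) the ratio was under 0.25, which among the exons named above includes Ewsr1, Tsg101, Clk1, Khdrbs3, the 43-nt exons of Rbfox1 and Rbfox2 and the less included exon of Cacna1a (0.237). In 2334 members (69.3%) the chosen junctions held at least 90% of the reads at both splice sites. Of all members, 62 overlapped another and 57 had a second cassette exon between the same flanks, as in Cacna1a, Cacna1b and Rbfox2. Dlgap4, a postsynaptic scaffold, had such exons of 80 nt (42.5% and 43.7%) and 89 nt (54.7% and 57.1%), and Plpp1, a lipid phosphatase, of 155 nt (25.3% and 25.6%) and 152 nt (21.6% and 20.7%), each set against the same skipping reads. In Dlgap4 and Plpp1, which were added after their values were seen, skipping both exons of the pair gave an early stop.

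Transcript levels estimated on mm10 gave a second view of the same RNA. For 1256 members a transcript share could be set beside the junction value. It was the TPM of transcripts with the exon, divided by that TPM plus the TPM of transcripts with the skipping junction. Only transcripts with the same identifier and length in GENCODE M21 were counted. A share of 0% or 100% can therefore also reflect missing transcripts of 1 form. Both measures rested on the same libraries and in part on the same reads. Across exons, which are not independent replicates, Pearson's r was 0.746 and Spearman's rho 0.676. The median difference was 10.1 percentage points, and 620 exons (49.4%) lay within 10 points. The transcript share of these exons differed between the libraries by a median of 1.65 points. The distance varied among named exons. Gnb1 was at 74.9% by junctions and 74.1% by transcripts, Gria3 at 9.68% and 9.74%, and Cacna1b at 81.1% and 77.7%. Ezh2, added after its values were seen, was at 19.7% and 59.3%, Luc7l at 56.9% and 4.43%, and Slc22a17 at 89.2% and 0%. In 749 host genes with transcripts annotated for decay, these held a median of 8.15% of the gene's TPM.

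**Figure D5:**
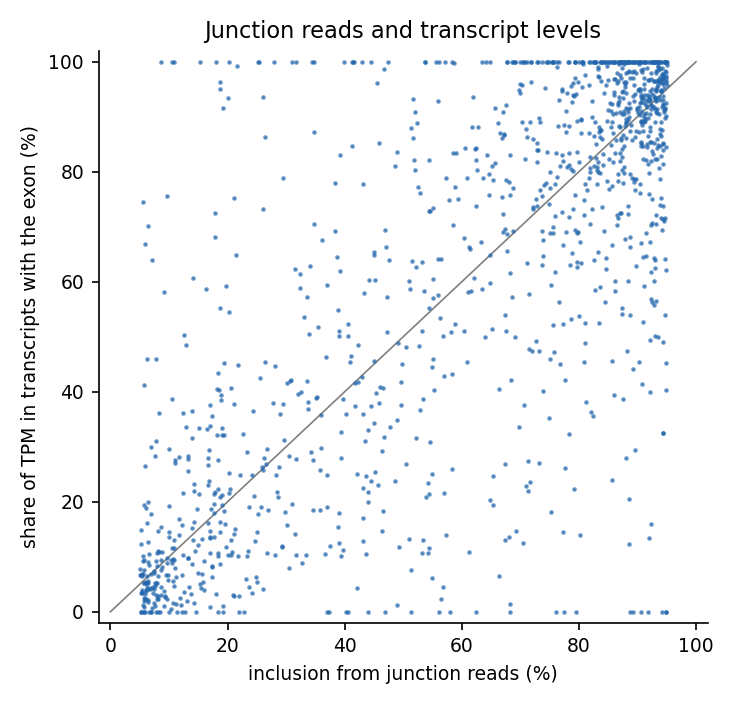
Inclusion from junction reads (x axis, %) against the transcript share (y axis, %), mean of 2 libraries, for 1256 members. The transcript share is the TPM of transcripts with the exon, over that of transcripts with the exon or the skipping junction. Each point is an exon and the line marks equal values. Points crowd at both ends of the diagonal, and 49.4% lie within 10 percentage points.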

How the data were processed

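Junctions and exons were taken as deposited on mm9. The junction table holds whole-number counts of reads per junction, which the authors deposited as a sum with the reads of replicates R1 and R2 in each name, and a score per junction, deposited without a header and taken from its values as irreproducibility. The deposited mm10 tables hold TPM, FPKM and expected counts per gene or transcript, quantified per library with GENCODE M4, per the file headers and read-me. Which aligner, junction caller and quantifier made them was not given in the sources used here. A triple of junctions was formed for each exon, and the qualifying triple with the most reads was kept. Exact Clopper-Pearson intervals (95%) and Fisher's exact tests were computed with SciPy 1.17.1 and tested on simulated data. Mean inclusion reads were rounded for the test. Exons were matched to GENCODE M21 by transcript identifier with equal exon and intron lengths (3225), or by gene identifier and equal lengths (69), and frames were followed there. No coordinates were converted. The 3 exons whose frame did not follow the annotation were left out. TPM is given as mean ± SD of 2 libraries.

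The exons and gene lists were chosen with earlier results of these data known. Named exons are the 10 with most reads, the 5 highest, 5 lowest and 5 nearest 50% with 200 or more reads, the called ones, all members of 3 splicing lists and 3 of each other list, and those nearest each limit. Others are said to be added. The alternatives tried are in the closing section.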

Additional observations from a re-analysis of the deposited data

How the results depend on the processing

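The number of members was 3370 by the rule and between 2334 and 4796 under the other settings, all within 1.5 times apart from the next. With inclusion limited to 10% to 90% it was 2035, because fewer exons can pass. Without replicate 1 or 2 it was 3075 or 2862, of which 2725 and 2421 were members of the full set. The 9 members that differed between R1 and R2 became 17 with the lower of both inclusion junctions (8 of the 9 among them) and 24 with their sum (all 9 among them), which counts more reads, and numbered 7 to 12 under the other settings. The median replicate difference ranged from 2.83 to 4.46 percentage points. The share of coding exons with an early stop when skipped was 87.0% and at most 87.9% under the other settings, except 89.5% among exons whose junction reads were at least 0.25 times those at the other introns. That setting, and one that required 90% of the reads at both splice sites, were chosen after seeing the data. For inserted exons the share ranged from 89.9% to 92.4%. The median host level was 16.1 TPM, with 15.8 to 16.1 TPM when a replicate was left out, and the median transcript share of inclusion was 69.5%, with 69.2% to 70.8%. Of 136 named exons, 11 moved by over 1.5 times with the lower junction, among them Srsf6 (17.3% to 11.0%), Srsf2 (8.76% to 5.60%) and Prpf38b (6.88% to 4.31%), and 7 without replicate 2, namely both exons of Mybpc1 (43 nt, 92.5% to 14.3%, and 59 nt, 36.4% to 0%), and those of Tsg101 (80.1% to 50.9%), ENSMUSG00000091158 (8.30% to 1.62%), Raver2 (7.95% to 1.64%), Syncrip (16.4% to 5.75%) and Cacna1c (104 nt, 6.74% to 0%). No paired analysis was possible because there is 1 group. Depth limits exons with few reads, and the p-values set the libraries' difference against read counting error, with no estimate of the spread between libraries.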
